A study of Mus musculus with 6 samples.

Results

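Genes of the oncostatin M and interleukin-6 (IL-6) family were followed through the cell types of bleomycin-injured mouse lung. They were 7 of the 32285 genes measured, picked by name. They comprise the ligands Osm, Lif and Il6, the receptor subunits Osmr, Il6ra and Il6st, and the feedback inhibitor Socs3. The choice used the unique transcript counts (UMIs) of all 6 libraries and was made for the pattern of these genes over cell types, so their levels by cell type are given as a description with no test.

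The 6 libraries came from the right lungs of 12-week-old male hCTLA4 mice, a C57BL/6 line in which part of the mouse Ctla4 gene is replaced by human CTLA4 sequence so that the human antibody ipilimumab can bind. Every mouse, the controls included, carried this allele and received 2 oropharyngeal doses of bleomycin at 1.25 U per kg, given 2 weeks apart, which injures the lung and leaves it fibrotic. From day 21, counted in the study's results from the second bleomycin dose, 3 mice were given an IgG1 isotype control antibody and 3 mice ipilimumab, a blocking antibody to CTLA4, each at 5 mg per kg in repeated injections over 4.5 weeks. No uninjured lung was among the libraries, so levels before bleomycin are unknown.

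Oncostatin M, leukemia inhibitory factor (LIF) and IL-6 share the signaling chain gp130, which Il6st encodes. IL-6 first binds the IL-6 receptor α chain (Il6ra), oncostatin M signals through the pair of Osmr and gp130, and LIF through the pair of Lifr and gp130. The receptors activate JAK kinases and the transcription factor STAT3, and STAT3 in turn switches on Socs3, whose protein binds gp130 and damps the signal. In injured lung these cytokines are known for carrying signals from immune cells to structural cells and for acute-phase and fibrotic responses.

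The genes lie on 5 chromosomes of the GRCm38 build (GENCODE M21), all as protein-coding genes. Osm (chr11:4236420-4241026, plus strand) and Lif (chr11:4257557-4272514, plus strand) are neighbors with 16530 bases and 0 protein-coding genes between them. Socs3 is on the same chromosome (chr11:117966079-117970047, minus strand). Il6 is at chr5:30013114-30019981 (plus strand), Il6ra at chr3:89864059-89913196 (minus strand), Il6st at chr13:112464070-112510086 (plus strand) and Osmr at chr15:6813577-6874969 (minus strand). Il6ra is overlapped in the annotation by Gm42809, and a part of the reads counted for either gene may belong to the other.

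Because STAT3 binding is part of how Socs3 is regulated, the 250 bases before the start of each gene were searched on both strands for TTCNNNGAA, the core of the site bound by STAT dimers. Of the 6 family genes with a RefSeq window on GRCm38, 1 held a match. It was Socs3, where the match lies 154 bases before the start. The 29 bases around it (chr11:117969502-117969530, minus strand) are shown because they are the only such match among these genes, with the motif in capitals.
Socs3: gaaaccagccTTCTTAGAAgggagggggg
In the annotation these bases overlap no exon and lie within 1 longer Socs3 transcript. The same motif occurred in 7.02% of 32851 such windows over all genes, and a match says nothing about binding in these cells.

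From each library 3270 to 4357 cells were kept, out of 37666042 to 48612412 UMIs per library. Cells were assigned to a class by at least 2 of a list of marker genes, and a mouse entered a comparison with at least 10 cells of the class. Levels are UMIs summed over the cells of a class in a mouse, scaled to 1000000 UMIs of that class (CPM). This 3′ assay is designed to count transcript ends, and CPM was compared between genes without a length correction. Whether the counts rise with gene length was not tested. The library of ipilimumab mouse 1 stood apart, with 78.9% of its UMIs in cell barcodes against 92.4% to 93.1% in the other 5, and 22056 barcodes of 100 or more UMIs against 4834 to 6230. It held 162 of the 186 alveolar type 2 (AT2) cells, which had a median of 1092 UMIs. Pairs of libraries shared 0 to 8 cell barcodes.

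Osm was a gene of myeloid cells. The level was 281, 286 and 395 CPM in neutrophils of the 3 IgG1 mice and 338, 363 and 432 CPM in those of the ipilimumab mice. Alveolar macrophages, phagocytes of the airspace, lay at 307, 310 and 341 CPM under IgG1 and at 322, 383 and 422 CPM under ipilimumab. The means over 6 mice were 349 ± 59.7 CPM (SD, n = 6) and 348 ± 45.7 CPM (SD, n = 6), so among classes with at least 10 cells in 3 or more mice these shared the top, with a difference smaller than their spread. Classical monocytes followed at 174 ± 34.4 CPM (SD, n = 6) and nonclassical monocytes, which patrol vessels, at 55.7 ± 9.96 CPM (SD, n = 6). Interstitial macrophages ranged from 23.8 to 344 CPM over 5 mice, which overlaps both neighbors. Of the cells gated as alveolar macrophages, 20.3% fell in unnamed clusters, and the gate did not tell resident from recruited cells.

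All other classes measured in at least 3 mice had mean Osm levels of at most 20.1 CPM. T cells were at 6.36 ± 1.76 CPM and B cells at 4.49 ± 1.64 CPM (SD, n = 6 each), and the structural classes were as low, with blood endothelium at 5.48 ± 5.10 CPM and fibroblasts at 3.37 ± 3.66 CPM (SD, n = 6 each). At least 1 Osm UMI was seen in 53.6% of 1905 neutrophils (median 3851 UMIs per cell) and 76.4% of 3255 alveolar macrophages (median 21364), against 2.02% of 494 fibroblasts (median 6598). Cells of at least 1000 UMIs were also thinned to 1000 UMIs, and smaller cells were left out. The shares were then 24.8% in neutrophils, 24.4% in alveolar macrophages and 0.246% in fibroblasts. Free RNA in the libraries, read from barcodes too small to be cells, held Osm at 192 to 599 CPM.

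Counting all cells together, alveolar macrophages carried 81.2% of the 31916 Osm UMIs while making up 13.4% of the cells, and neutrophils carried 8.89%. The transcripts were spread over many alveolar macrophages, and the 5 highest cells held 2.27% of that class's UMIs.

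Lif was scarce. Alveolar macrophages led with 16.9, 19.2 and 23.5 CPM in the IgG1 mice and 17.6, 24.5 and 26.5 CPM in the ipilimumab mice, a mean of 21.4 ± 3.97 CPM (SD, n = 6). They held 83.2% of the 1961 Lif UMIs, and 24.1% of these cells (median 21364 UMIs) had one, against 0.400% of endothelial cells (median 3660). Free RNA held Lif at 12.6 to 41.2 CPM, a range that includes the alveolar macrophage mean. Nonclassical monocytes were next at 10.1 ± 7.85 CPM, fibroblasts at 8.31 ± 5.48 CPM and neutrophils at 7.43 ± 4.80 CPM (SD, n = 6 each), whose ranges overlap. Alveolar macrophages thus led for Lif and shared the top for its chromosomal neighbor Osm, but the level of Lif was low. They held 25930 Osm UMIs against 1631 Lif UMIs, and neutrophils 2837 Osm UMIs against 59 Lif UMIs.

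Among classes with at least 10 cells in 3 or more mice, Il6 was highest in fibroblasts and low in most leukocytes. Fibroblasts had 375, 474 and 720 CPM in the IgG1 mice and 364, 746 and 902 CPM in the ipilimumab mice. The mean was 597 ± 223 CPM (SD, n = 6), and 55.7% of 494 fibroblasts had an Il6 UMI, against 0.400% of 999 endothelial cells. Adventitial fibroblasts, the Pi16, Dpt or Lum type around vessels and airways, were at 447 to 1177 CPM over 6 mice. Alveolar fibroblasts reached 10 cells in only 2 mice, both given ipilimumab, with 330 and 815 CPM.

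Among leukocytes, interstitial macrophages had 139 ± 119 CPM of Il6 (SD, n = 5), and 71.3% of their 216 Il6 UMIs were in 5 of 109 cells. Classical monocytes had 21.8 ± 19.2 CPM and alveolar macrophages 20.3 ± 7.75 CPM (SD, n = 6 each). Both means were below the level of Il6 in free RNA, 27.8 to 117 CPM, whose part in them was not tested. Neutrophils, high for Osm, were at 1.93 ± 2.60 CPM, and T and B cells below 1 CPM. In general capillary cells (median 3390 UMIs per cell) no Il6 UMI was found in 568 cells, which allows a share of cells with a UMI of up to 0.528% and sets no limit on low expression. By number of transcripts, fibroblasts held 50.1% of the 5501 Il6 UMIs from 2.04% of the cells and alveolar macrophages 29.1%.

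**Figure D1:**
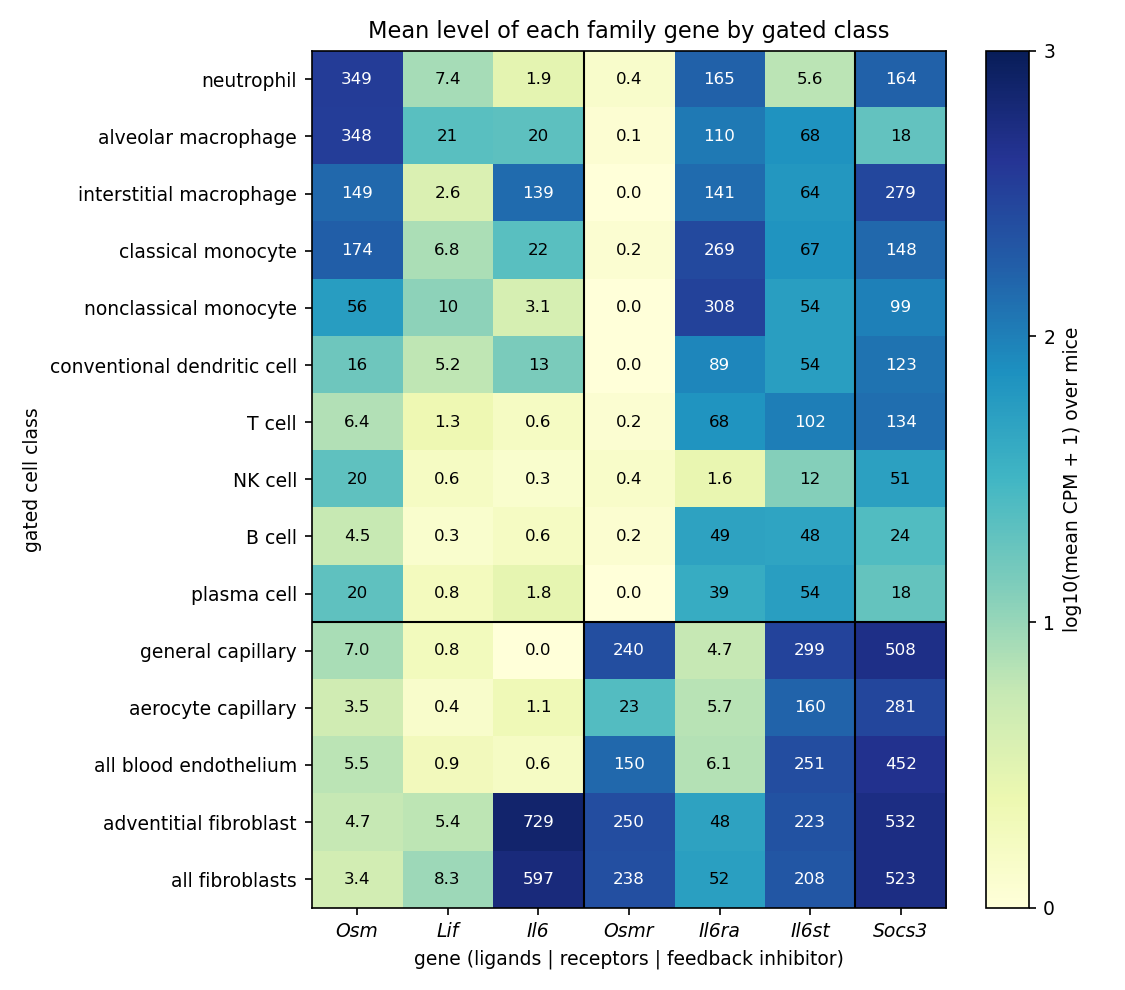
Mean level of the 7 family genes (columns) in 15 gated classes (rows), as log10(mean CPM + 1) over mice with at least 10 cells and the mean CPM printed in each square. Osm is highest in neutrophils (349) and alveolar macrophages (348), Il6 in fibroblasts (597 in all fibroblasts), and Osmr is below 1 CPM in every leukocyte row.

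**Figure D2:**
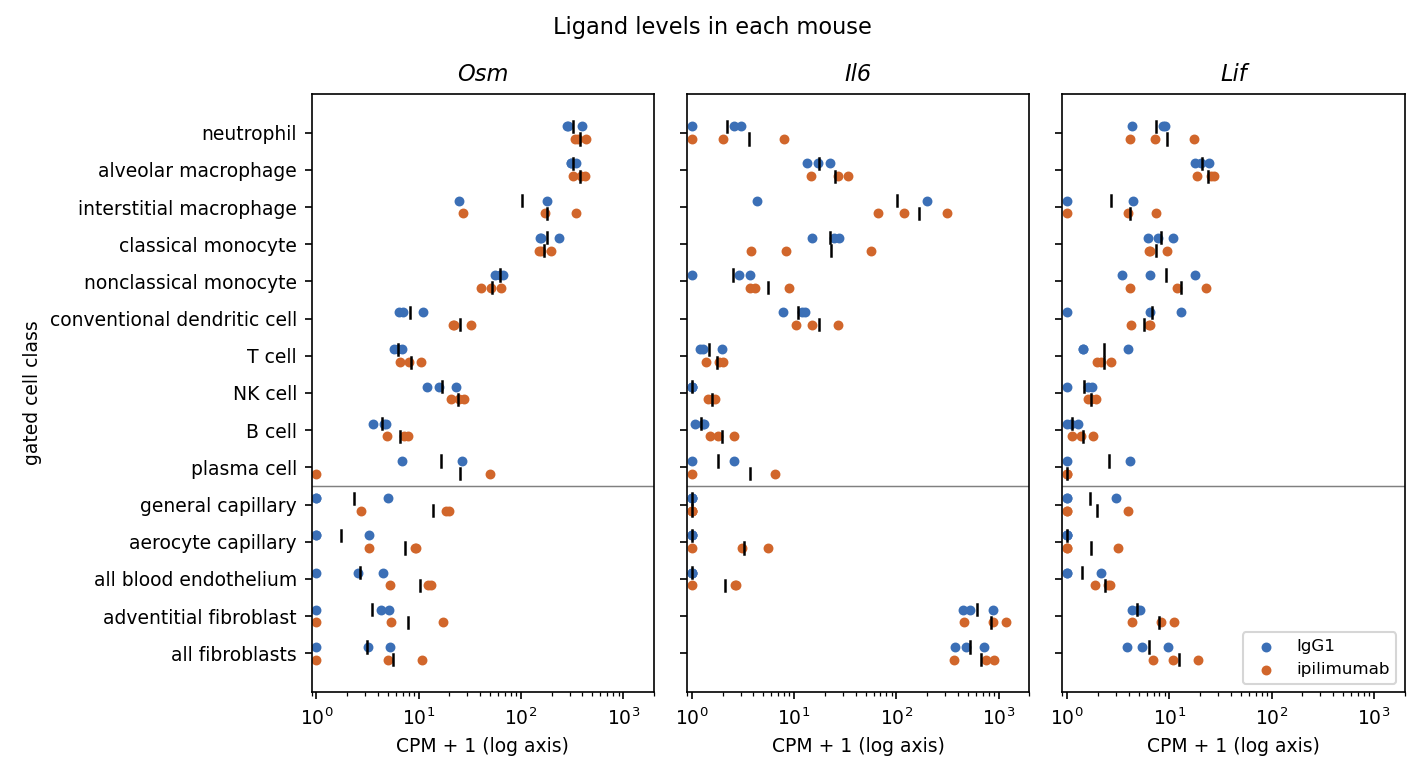
Levels of Osm, Il6 and Lif in each mouse (points, CPM + 1 on a log axis) by gated class, with IgG1 in blue, ipilimumab in orange and group means as black bars. The points of the treatments overlap in neutrophils and alveolar macrophages for Osm and in fibroblasts for Il6.

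Osmr, the oncostatin M receptor subunit, was found in structural cells. Fibroblasts averaged 238 ± 93.3 CPM (SD, n = 6) and blood endothelium 150 ± 56.2 CPM (SD, n = 6), with overlapping ranges of 114 to 385 and 85.3 to 208 CPM. No leukocyte class averaged above 0.409 CPM. An Osmr UMI was seen in 46.0% of fibroblasts (median 6598 UMIs per cell) and 30.5% of endothelial cells (median 3660). In 569 nonclassical monocytes (median 7533) there was none, which allows a share of cells with a UMI of up to 0.527%, counting error only. Free RNA held Osmr at 2.66 to 18.9 CPM.

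Endothelial Osmr differed between the capillary types. General capillary cells, which can act as progenitors in capillary repair, averaged 240 ± 64.8 CPM (SD, n = 6). Aerocytes, the thin Car4 or Ednrb positive cells at the gas exchange surface, averaged 23.2 ± 16.2 CPM (SD, n = 6). The highest aerocyte value, 42.8 CPM, was below the lowest general capillary value, 142 CPM. Of AT2 cells only ipilimumab mouse 1 had 10 or more, and these had 114 CPM of Osmr from 52 UMIs in 162 cells. The epithelium could not be compared between treatments.

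Il6ra ran the other way and was a leukocyte gene. Nonclassical monocytes led with 308 ± 15.6 CPM (range 291 to 327) and classical monocytes followed with 269 ± 26.0 CPM (range 240 to 303), with SD over n = 6 and ranges that overlap. Neutrophils had 165 ± 14.5 CPM, alveolar macrophages 110 ± 28.4 CPM, T cells 67.7 ± 11.7 CPM and B cells 48.9 ± 6.35 CPM (SD, n = 6 each). Fibroblasts had 52.4 ± 7.44 CPM, close to B cells, and blood endothelium 0 to 16.6 CPM over the 6 mice, with an Il6ra UMI in 12 of 999 cells. NK cells were at 1.59 ± 1.31 CPM (SD, n = 6). Free RNA held Il6ra at 60.3 to 73.4 CPM and Il6st at 60.6 to 108 CPM.

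Il6st, the shared gp130 chain, was measured in nearly every class and was highest in structural cells. Blood endothelium had 251 ± 27.8 CPM and fibroblasts 208 ± 24.3 CPM (SD, n = 6 each), with overlapping ranges. General capillary cells (299 ± 36.6 CPM, range 246 to 344) lay above aerocytes (160 ± 20.8 CPM, range 136 to 197; SD, n = 6 each). T cells had 102 ± 12.4 CPM, and monocytes and macrophages 54.5 to 68.4 CPM on average. Neutrophils had 5.59 ± 2.96 CPM and NK cells 11.6 ± 3.43 CPM (SD, n = 6 each), so neutrophils combined a high Il6ra level with little Il6st. Of 743 neutrophils with an Il6ra UMI, 2.83% also had an Il6st UMI, against 56.5% of 1911 such T cells, whose median depth was 9382 against 4077 UMIs.

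Cells with both chains of the oncostatin M receptor were structural. Of 305 endothelial cells with an Osmr UMI, 70.8% also had an Il6st UMI, against 46.5% of the endothelial cells without Osmr, at median depths of 5006 and 3047 UMIs. In fibroblasts 78.4% of 227 Osmr-positive cells had Il6st, against 40.8% of the rest, at 12493 and 1753 UMIs. Depth moves with these shares and its part in them was not tested. Among classes with at least 10 cells in 3 or more mice, Lifr, the other partner of gp130, was highest in blood endothelium. It had 231 ± 47.0 CPM there and 40.8 ± 7.98 CPM in fibroblasts (SD, n = 6 each). Classical monocytes (28.1 to 76.2 CPM) and nonclassical monocytes (42.4 to 68.2 CPM) overlapped fibroblasts. Blood endothelium held 40.4% of the Lifr UMIs, B cells 15.5% and fibroblasts 6.45%. Lifr did not show the gap between capillary types, with 250 ± 71.5 CPM in general capillary cells and 196 ± 41.0 CPM in aerocytes.

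Socs3 was highest in fibroblasts and endothelium, the classes that also led for Osmr and Il6st. Fibroblasts had 523 ± 47.0 CPM (range 492 to 616) and blood endothelium 452 ± 79.7 CPM (range 330 to 554; SD, n = 6 each). Within the endothelium, general capillary cells had 508 ± 55.2 CPM (range 437 to 592) and aerocytes 281 ± 89.1 CPM (range 138 to 365). Interstitial macrophages followed with 279 ± 131 CPM (SD, n = 5), then neutrophils with 164 ± 27.0 CPM, classical monocytes with 148 ± 41.9 CPM and T cells with 134 ± 46.6 CPM (SD, n = 6 each). Alveolar macrophages, high for Osm, had 18.5 ± 7.36 CPM, the lowest of the myeloid classes. Free RNA held 127 to 233 CPM of Socs3, above the mean level in alveolar macrophages and B cells (24.4 ± 4.89 CPM). The means of NK cells, plasma cells, nonclassical monocytes and conventional dendritic cells were also below that range. Those of neutrophils, classical monocytes and T cells lay inside it. The part of free RNA in these levels was not tested.

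Genes with the most similar pattern were ranked by Pearson's r of log2(CPM + 10) over 12 class means, which come from the same 6 libraries. For Osm they were Pgd, Arl11 and Ccl6 (r = 0.961, 0.956 and 0.955), for Il6 Sdk1, Col14a1 and Cfb (0.961, 0.946 and 0.946), and for Lif Atxn10, Lmo4 and Sort1 (0.895, 0.880 and 0.868). Osmr was matched at r = 0.9999 by Pcsk5, Zfp521 and Mpdz, a figure set by the contrast of fibroblasts and endothelium with all leukocytes. Il6ra was closest to Gm2a, Gpx1 and Prkcd (0.910, 0.871 and 0.846), Il6st to Pkd1, Thoc6 and Pprc1 (0.897, 0.857 and 0.844), and Socs3 to Gbp2, Slco3a1 and Tmem88 (0.884, 0.883 and 0.874).

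Treatment was then compared within each class, to ask whether CTLA4 blockade altered these ligands and receptors. UMIs summed per mouse were tested with edgeR's quasi-likelihood test over all genes of the class, and a call needed an adjusted p below 0.05 together with a log2 fold change beyond 0.3. The 7 genes passed the low-count filter in 57 pairs of gene and class, over 15 classes. Aerocytes and general capillary cells also count in blood endothelium, and adventitial fibroblasts in fibroblasts, so the pairs are not independent. The count of pairs called was 1, Osmr in blood endothelium, higher with ipilimumab. Of the 56 pairs not called, 30 had positive and 26 negative log2 fold changes, 8 had an unadjusted p below 0.05, and their adjusted p began at 0.105. DESeq2 called the same number, 1 of 57. Counts of unadjusted p below 0.05 and of DESeq2 calls, here and for the lists below, are given without the share over all genes. They are not read as an enrichment.

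Osmr in blood endothelium was 85.3, 102 and 111 CPM in the IgG1 mice, from 54, 88 and 40 UMIs. It was 193, 200 and 208 CPM in the ipilimumab mice, from 225, 132 and 255 UMIs. The groups did not overlap, and every ipilimumab mouse was above every IgG1 mouse. The log2 fold change was 1.05 ± 0.18 (SE, n = 3 per group; edgeR adjusted p = 0.0464). In this class 6 of 7933 genes, 0.0756%, were called. The genes described here were chosen with earlier results of these data known, so this p is no independent support. The call lay close to its threshold and was lost when any 1 of the 6 mice was left out, at adjusted p of 0.0503 to 0.200 and log2 fold changes of 0.94 to 1.09.

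Within general capillary cells alone, Osmr was 142, 205 and 213 CPM in the IgG1 mice and 269, 291 and 317 CPM in the ipilimumab mice, again without overlap. The log2 fold change was 0.68 ± 0.25 (SE, n = 3 per group) and was not called (edgeR adjusted p = 0.445), in a class where 0 of 5782 genes, 0%, were called. Aerocytes had 6.39, 6.58 and 25.1 CPM under IgG1 and 17.0, 41.3 and 42.8 CPM under ipilimumab, which overlap, from 1 to 19 UMIs per mouse, and did not pass the low-count filter.

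Other properties of the endothelial cells were set beside this result. General capillary cells made up 39.4% to 61.2% of the endothelium in the IgG1 mice and 51.7% to 65.5% in the ipilimumab mice (two-sided exact permutation p = 0.40), and overlapped. The part kept on expression profile although below the library's UMI threshold was 29.8% to 52.0% under IgG1 and 56.1% to 64.3% under ipilimumab, without overlap (two-sided exact permutation p = 0.10, the smallest that 3 against 3 allows). With those cells left out, the log2 fold change of Osmr was 1.16, with an edgeR adjusted p of 0.0639. The share of endothelial cells with an Osmr UMI was 23.4% to 26.4% under IgG1 and 26.9% to 41.4% under ipilimumab (exact permutation p = 0.10). After thinning to 1000 UMIs it was 6.02% to 11.5% and 11.4% to 20.7%, which overlap (exact permutation p = 0.20). Thinning left out cells below 1000 UMIs. It kept 156 of 178, 61 of 75 and 83 of 94 cells in IgG1 mice 1, 2 and 3. In ipilimumab mice 1, 2 and 3 it kept 216 of 286, 123 of 139 and 203 of 227 cells.

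Marker lists of several classes separated the groups as well, each at a two-sided exact permutation p of 0.10, the smallest that 3 against 3 allows. The marker lists of all other classes overlapped. In the endothelial sums, the list of blood endothelium itself was lower with ipilimumab, at 8806 to 10675 CPM against 11312 to 12809 CPM under IgG1. Lists of alveolar macrophages (67.9 to 75.7 against 78.6 to 115 CPM) and conventional dendritic cells (158 to 183 against 187 to 250 CPM) were also lower. Higher with ipilimumab were those of airway secretory cells (42.5 to 222 against 7.90 to 36.0 CPM), AT2 cells (10.6 to 32.7 against 1.58 to 8.09 CPM) and classical monocytes (9.08 to 22.0 against 2.77 to 8.09 CPM). The 6 fibroblast markers (Col1a1, Col1a2, Col3a1, Pdgfra, Mfap4 and Dcn) summed to 3.16 to 69.3 CPM under IgG1 and to 1.51 to 75.9 CPM under ipilimumab, which overlap. Over the 6 markers there were 3, 25 and 2 UMIs in IgG1 mice 1, 2 and 3, and 45, 1 and 93 UMIs in ipilimumab mice 1, 2 and 3. The summed 12 dissociation and stress genes, which respond to tissue digestion, ranged from 7216 to 8770 CPM under IgG1 and from 9063 to 10246 CPM under ipilimumab, without overlap. The part of these lists in the Osmr difference was not tested.

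**Figure D3:**
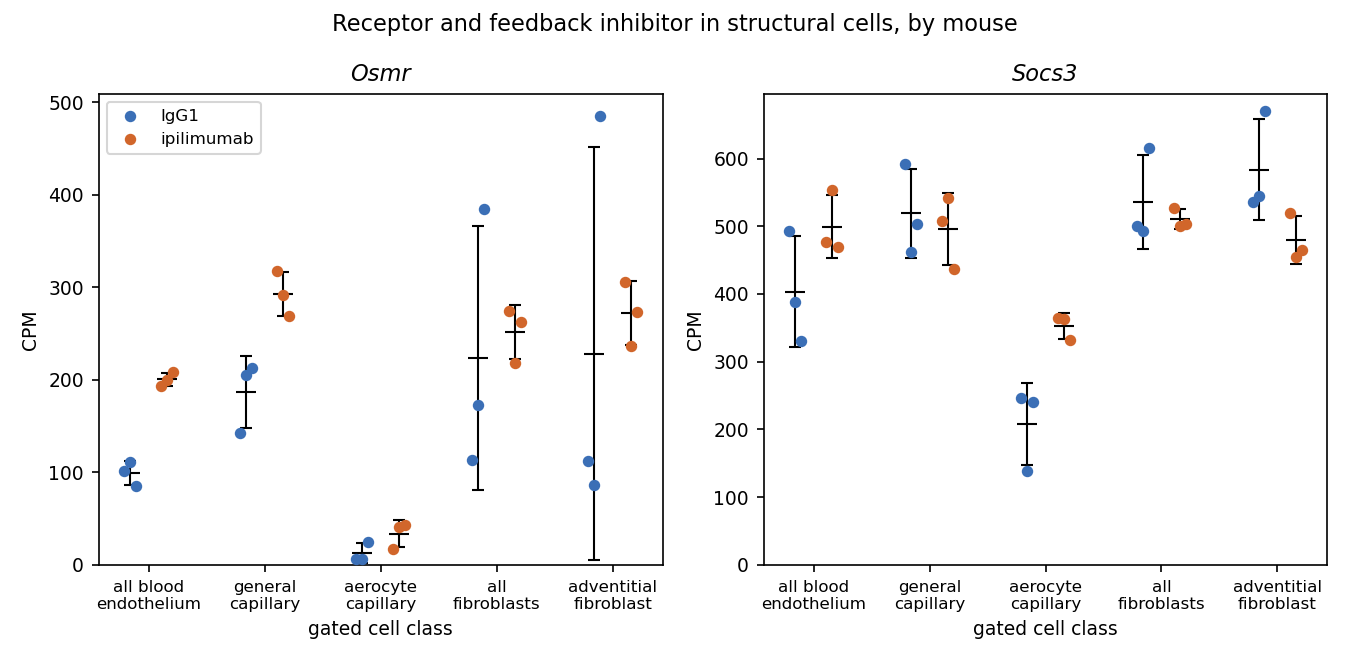
Osmr and Socs3 in each mouse (points, CPM) in endothelial and fibroblast classes, IgG1 in blue and ipilimumab in orange, with the group mean and SD in black (n = 3). Osmr separates by treatment in all blood endothelium and in general capillary cells, and IgG1 fibroblasts spread from 114 to 385 CPM.

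Fibroblast Osmr showed no such separation. It was 114, 173 and 385 CPM in the IgG1 mice and 219, 263 and 275 CPM in the ipilimumab mice, with a log2 fold change of 0.13 ± 0.34 (SE; edgeR adjusted p = 0.959), in a class where 2 of 7410 genes, 0.027%, were called. The ipilimumab values lay inside the IgG1 range. The difference between the endothelial and fibroblast responses was not tested.

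Neither Il6st, the partner chain of Osmr, nor Lifr, the other partner of gp130, followed Osmr. Il6st in blood endothelium was 207, 266 and 279 CPM in the IgG1 mice and 234, 244 and 275 CPM in the ipilimumab mice, which overlap. Lifr in blood endothelium was 222, 262 and 309 CPM under IgG1 and 179, 201 and 214 CPM under ipilimumab, without overlap and lower with treatment. Its log2 fold change was -0.40 ± 0.18 (SE, n = 3 per group) and was not called (edgeR adjusted p = 0.427). Within general capillary cells it was -0.58 ± 0.25 (SE; edgeR adjusted p = 0.568).

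Socs3 in aerocytes was 138, 240 and 246 CPM in the IgG1 mice and 331, 363 and 365 CPM in the ipilimumab mice, without overlap. The log2 fold change was 0.69 ± 0.19 (SE, n = 3 per group) and was not called (edgeR adjusted p = 0.105). In aerocytes 36 of 5684 genes, 0.633%, were called. In general capillary cells, where Socs3 was higher to begin with, it was 463, 503 and 592 CPM against 437, 508 and 542 CPM, which overlap, with a log2 fold change of -0.08 ± 0.23 (SE; edgeR adjusted p = 0.954). Adventitial fibroblasts had 536, 545 and 669 CPM of Socs3 against 454, 464 and 520 CPM, without overlap and lower with ipilimumab (-0.27 ± 0.19, SE; edgeR adjusted p = 0.994). In that class 2 of 5807 genes, 0.0344%, were called.

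Socs3 was not called in T, B or NK cells. T cells had 81.7, 102 and 135 CPM under IgG1 and 119, 153 and 215 CPM under ipilimumab, which overlap (log2 fold change 0.61 ± 0.22, SE; edgeR adjusted p = 0.637). B cells had 19.7, 20.2 and 21.7 CPM against 23.8, 29.7 and 31.0 CPM, without overlap (0.45 ± 0.12, SE; edgeR adjusted p = 0.595). NK cells had 37.9, 47.4 and 67.0 CPM against 48.8, 51.7 and 52.3 CPM, which overlap (0.00 ± 0.19, SE; edgeR adjusted p = 0.997). Called genes were 1 of 12016 in T cells, 0.00832%, and 1 of 11704 in B cells, 0.00854%. When genes of low count were kept in the edgeR fit, Socs3 passed in T cells (adjusted p = 0.0156), B cells (0.0444) and aerocytes (0.0404). Il6st passed in B cells (0.0432). The shares of called genes above are from the filtered fit. The share over all genes without the filter is not given, so these passes are not read as a result about these genes. Il6st in B cells was 46.8, 56.6 and 58.0 CPM under IgG1 and 34.6, 43.4 and 46.2 CPM under ipilimumab, without overlap, with a log2 fold change of -0.38 ± 0.12 (SE; edgeR adjusted p = 0.636).

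The ligands were not called in their main sources. Osm had log2 fold changes of 0.16 ± 0.18 in neutrophils (SE; edgeR adjusted p = 0.917) and 0.24 ± 0.13 in alveolar macrophages (SE; edgeR adjusted p = 0.872), and the mice of both groups overlapped in each. In lymphocytes, where Osm was low, the values were 0.74 ± 0.27 in B cells (edgeR adjusted p = 0.663), 0.59 ± 0.26 in NK cells (0.851) and 0.48 ± 0.24 in T cells (0.695). Il6 in fibroblasts had a log2 fold change of 0.36 ± 0.31 (SE; edgeR adjusted p = 0.846), and Lif in alveolar macrophages 0.21 ± 0.19 (SE; edgeR adjusted p = 0.880). Il6ra had negative values in 10 of 11 classes and was called in none by edgeR or DESeq2, with 1 unadjusted p below 0.05. Its largest was 1.21 ± 0.47 in plasma cells (SE; edgeR adjusted p = 0.822), from 2 mice per group.

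**Figure D4:**
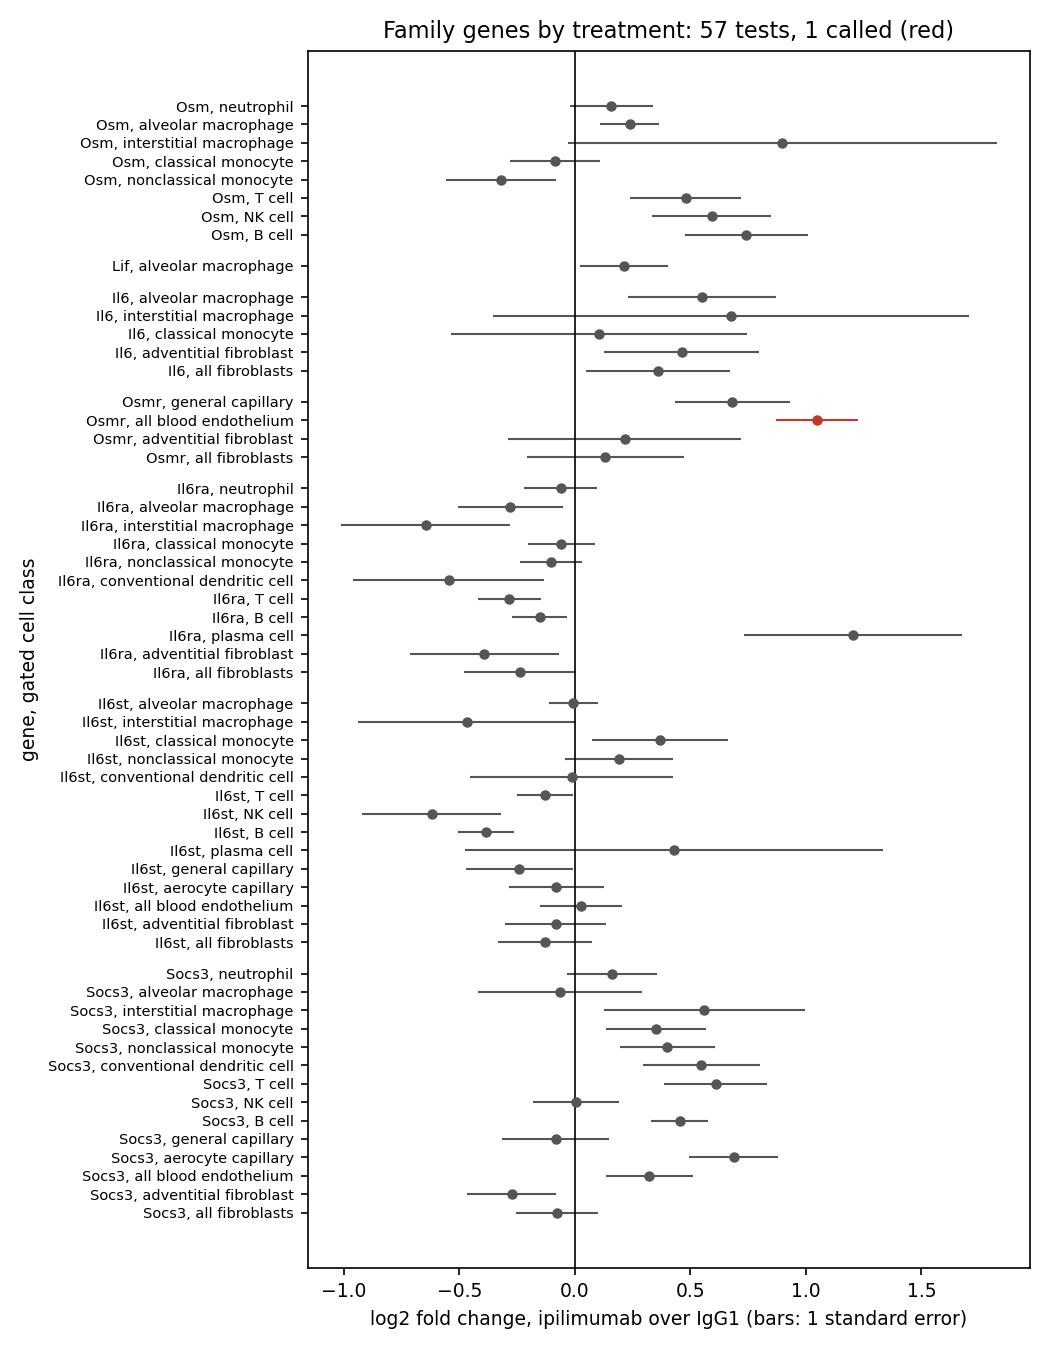
Log2 fold change of ipilimumab over IgG1 for the 57 tested pairs of family gene and gated class (points), with bars of 1 standard error from edgeR. The called pair, Osmr in all blood endothelium at 1.05, is red, and the other 56 are grey.

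Fixed lists of other genes of the pathway were read from the same fits. Of the STAT3 target genes, tested in 167 pairs of gene and class, 3 were called higher and 0 lower by edgeR (5 by DESeq2, and 31 with an unadjusted p below 0.05). Of the 3, 1 was in blood endothelium and 2 in aerocytes, where 0.0756% and 0.633% of all genes were called. Aerocytes are part of the blood endothelium, so these calls rest partly on the same cells. Pim1, a survival kinase induced by STAT factors, was 61.0, 64.8 and 78.6 CPM in blood endothelium of IgG1 mice and 154, 180 and 216 CPM in that of ipilimumab mice. The groups did not overlap, and the log2 fold change was 1.44 ± 0.21 (SE, n = 3 per group; edgeR adjusted p = 0.0399). In aerocytes Pim1 had a log2 fold change of 1.54 ± 0.30 (edgeR adjusted p = 0.00776), and Junb, a subunit of the AP-1 transcription factor and itself an early-response gene, one of 0.77 ± 0.14 (edgeR adjusted p = 0.00488). In blood endothelium all 11 STAT3 target genes tested had positive log2 fold changes, with a median of 0.56 against -0.02 over the 7933 genes tested, and 1 of the 11 was called. The summed level of the dissociation and stress genes separated the groups in the same class and direction (7216 to 8770 CPM under IgG1 and 9063 to 10246 CPM under ipilimumab), and its part in this shift was not tested. The call for Pim1 in blood endothelium was lost without ipilimumab mouse 2 or 3 or any of the 3 IgG1 mice, at adjusted p of 0.0564 to 0.0862. It was also lost with cells called by UMI total alone (0.0895) and with doublet-like barcodes kept (0.122).

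JAK and STAT genes and their regulators had 0 calls in 159 pairs with edgeR and 0 with DESeq2, and 21 pairs had an unadjusted p below 0.05. In blood endothelium 12 of the 13 had positive values, with a median of 0.41, in the same sums in which the stress list was higher and the endothelial marker list lower without overlap, whose part was not tested. The highest levels on the list were those of Stat3 in NK cells (1445 ± 192 CPM) and Jak2 in conventional dendritic cells (1364 ± 271 CPM; SD, n = 6 each). Other family receptors had 0 calls in 30 pairs with edgeR and 0 with DESeq2 (7 unadjusted p below 0.05). Il11ra1, the interleukin-11 receptor, was highest in adventitial fibroblasts at 246 ± 31.7 CPM (SD, n = 6). Other family ligands were scarce, led by Clcf1 in NK cells (49.1 ± 7.78 CPM) and Ebi3 in nonclassical monocytes (48.2 ± 19.4 CPM), and had 0 calls in 12 pairs with either tool (3 unadjusted p below 0.05). Adam10 and Adam17, proteases that can release the IL-6 receptor from the cell surface, peaked at 178 and 176 CPM and had 0 calls in 30 pairs with either tool (1 unadjusted p below 0.05).

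The dissociation and stress genes, read as a control for handling, had 3 calls in 172 pairs with edgeR, all higher and all in aerocytes, where 0.633% of all genes were called. DESeq2 made 5 calls on this list, and 48 pairs had an unadjusted p below 0.05. The 3 edgeR calls were Ier3 (log2 fold change 0.85 ± 0.15, edgeR adjusted p = 0.00368), Fos (0.63 ± 0.15, edgeR adjusted p = 0.0330) and Zfp36 (0.72 ± 0.17, edgeR adjusted p = 0.0356). Aerocytes are also the class in which Socs3 and Junb, both early-response genes, had their values above. The part of tissue digestion in these values was not tested.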

How the data were processed

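Single-cell suspensions of collagenase-digested right lung were run on the 10x 3′ kit, 1 library per mouse (n = 3 per group). The authors deposited UMI counts per gene for every barcode, aligned to mm10 by Cell Ranger, whose version differs between sources (7.0.0 in the submitters' processing notes). These counts precede the study's removal of ambient RNA. Cells were called by UMI total or by a profile differing from ambient barcodes, with at least 500 UMIs and 200 genes and at most 10% mitochondrial UMIs, and 90 to 163 doublet-like barcodes per library were removed. Classes needed at least 2 markers, with a score 1.5 times the next. Sums of UMIs for each class in each mouse were tested with edgeR 4.0.16 (R 4.3.3; TMM, filterByExpr, Benjamini-Hochberg over all genes of the class), with no covariate. DESeq2 1.42.0 was an alternative. The edgeR step was tested on simulated data.

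With 3 mice per group, p-values measure the spread between these libraries. Intervals for shares of 0 (3 counts of the total) cover counting error only. The genes and lists (other family ligands and receptors, JAK and STAT genes, receptor shedding, STAT3 targets, dissociation and stress genes) were chosen with earlier results of these data known. Every family gene was described in each class with at least 3 mice, Lifr beside them, and of the lists each called gene or else the 2 of highest level. Pairing by mouse number was checked and not used, since same-numbered mice did not deviate together in every pair.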

Additional observations from a re-analysis of the deposited data

Results flagged for a closer look

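Socs3 was the gene whose mice separated by treatment in opposite directions in different classes. Every ipilimumab mouse was above every IgG1 mouse in aerocytes (log2 fold change 0.69), conventional dendritic cells (0.55) and B cells (0.45). Every ipilimumab mouse was below every IgG1 mouse in adventitial fibroblasts (-0.27), at 454, 464 and 520 CPM against 536, 545 and 669 CPM. None of these values was called by edgeR, where 36 of 5684 genes in aerocytes (0.633%), 1 of 11704 in B cells (0.00854%), 0 of 4571 in conventional dendritic cells and 2 of 5807 in adventitial fibroblasts (0.0344%) were. The smallest two-sided exact permutation p for 3 against 3 mice is 0.10, and Socs3 was tested in 14 classes. The share of all genes that separate in this way was not counted. The difference between classes was not tested.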

How the results depend on the processing

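Of the pairs of family gene and class, 1 was called in the fit as reported, and also with DESeq2, with RLE size factors, with classes taken from clusters, with a gate of at least 3 markers and at an adjusted p below 0.1 with no fold limit. The count was 0 with a replicate block on the mouse number, with cells called by UMI total alone and with doublet-like barcodes kept. With no low-count filter the count was 5, and the share over all genes in that fit is not given. The count was 0 in each of the 6 fits without 1 mouse (range 0 to 0). Endothelial Osmr kept its direction throughout, with log2 fold changes of 0.94 to 1.16, and its adjusted p was 0.0639 with the block and 0.122 with doublet-like barcodes kept. The mouse numbers are not known to pair animals, and same-numbered mice correlated between -0.14 and 0.21 after removing group means.

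Direction turned in the fits without 1 mouse for Osmr in fibroblasts (-0.17 to 0.81; -0.17 without IgG1 mouse 1 and -0.02 without IgG1 mouse 2) and Socs3 in general capillary cells (-0.15 to 0.0495; 0.0495 without IgG1 mouse 1 and 0.01 without ipilimumab mouse 3). The class with the highest level was the same for 6 or 7 of the 7 genes under every alternative, the exception being Osm, where alveolar macrophages took the top from neutrophils under 6 alternatives. Of the calls in aerocytes, those of Pim1, Junb, Ier3, Fos and Zfp36 were lost with doublet-like barcodes kept (adjusted p 0.172 to 0.514). Depth limits the low levels, such as Osmr in aerocytes at 1 to 19 UMIs per mouse.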

Other observations

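Classes with too few cells for a level per mouse held family transcripts as well. Of 12 cells gated on basophil or mast cell markers, 1 to 5 per mouse, 11 had Il6 and 11 had Osm UMIs. These cells held 454 Il6 UMIs, 8.25% of all Il6 UMIs from 0.0494% of the cells, or 6888 CPM, and 126 Osm UMIs or 1912 CPM. Every mouse contributed, with 28 to 168 Il6 UMIs per mouse, and 78.6% of the Il6 UMIs were in 5 of the cells. No Osmr, Il6ra or Il6st UMI was found in them, which with 12 cells (median 5814 UMIs) allows a share of cells with a UMI of up to 25.0% and sets no limit on low expression. Clustering put all 12 in unnamed clusters.

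In 23 lymphatic endothelial cells Socs3 stood at 762 CPM, Osmr at 195 CPM and Il6st at 148 CPM, with 2 Lifr UMIs. In 30 plasmacytoid dendritic cells Lifr stood at 220 CPM and Il6ra at 117 CPM, with no Osmr UMI. Ciliated cells, 56 in all, had an Il6ra UMI in 69.6% and a pooled level of 87.2 CPM. These are levels pooled over mice, with no replicate error.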
